A study of Mus musculus with 6 samples.

Results

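The 10 genes described here are known to respond quickly to cAMP, calcium or other stimuli, and they were followed in beta-cells that had been cultured with or without the other islet endocrine cells. They are *Crem* and *Pde4b*, which cAMP induces, the 7 immediate early genes *Nr4a1*, *Nr4a2*, *Fos*, *Junb*, *Fosl2*, *Dusp1* and *Gem*, and the coactivator gene *Ppargc1a*. They were picked by symbol from the 13535 genes of the deposited table, and all 10 were found in it. The choice was made with the difference between the culture forms known, so that difference is described for them and not tested.

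The beta-cells came from islets of 12-week-old wild-type C57BL/6JRj male mice, were reaggregated, and were sorted again by flow cytometry on surface antigens after 5 days. In pseudo-islets they had been clustered with alpha- and delta-cells, and in pseudo-beta they had been clustered alone. Both culture forms shared the genotype, the RPMI medium with serum, the duration and the sorting, and the labels name no drug. Each of 3 experiments, numbered 35, 36 and 37, provided 1 library of each form, so there were 6 RNA-seq libraries with n = 3 per group. The study counts each n as an independent biological sample. Levels are normalized counts, a depth-adjusted amount of reads assigned to a gene that is not adjusted for its length, and each trio of values below is in the order of experiments 35, 36 and 37.

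In beta-cells, glucagon and the incretins act on receptors that raise cAMP, which activates protein kinase A and, through it, the transcription factor CREB. CREB binds the cAMP response element in promoters, and the genes that follow include brakes on the pathway itself: *Crem* encodes activators and the short repressor ICER, and PDE4B breaks cAMP down. Levels here are per gene and do not tell its transcripts apart, such as those for the *Crem* activators and for ICER. Immediate early genes are transcribed within minutes of a stimulus from factors that are already present, and their short-lived transcripts decay soon afterwards, so their level reports on the recent past of the cells.

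All 8 beta-cell markers were in the table, and their summed level ran from 7149499 to 8264135 in pseudo-islets and from 6890108 to 7642710.5 in pseudo-beta. Most of each sum was *Ins2*, with 5535870 to 5971280 in pseudo-islets and 5405330 to 5669970 in pseudo-beta. *Nkx6-1* and *Slc2a2* were lower in pseudo-islets in each experiment, *Pdx1* changed direction, and the other markers were higher. *Gcg*, the glucagon gene, ran from 941 to 2094 in pseudo-islets and from 0 to 36.1 in pseudo-beta, and *Sst*, the somatostatin gene, ran from 146 to 210 against 0 to 4.74. In bulk RNA, fewer cells of a type and less RNA per cell cannot be told apart. No marker of acinar, endothelial or stromal cells from the lists used (0 of 5 each) was in the table. Total normalized counts were between 17994346 and 19635287 per library, and the number of reads behind them is not known.

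**Figure D1:**
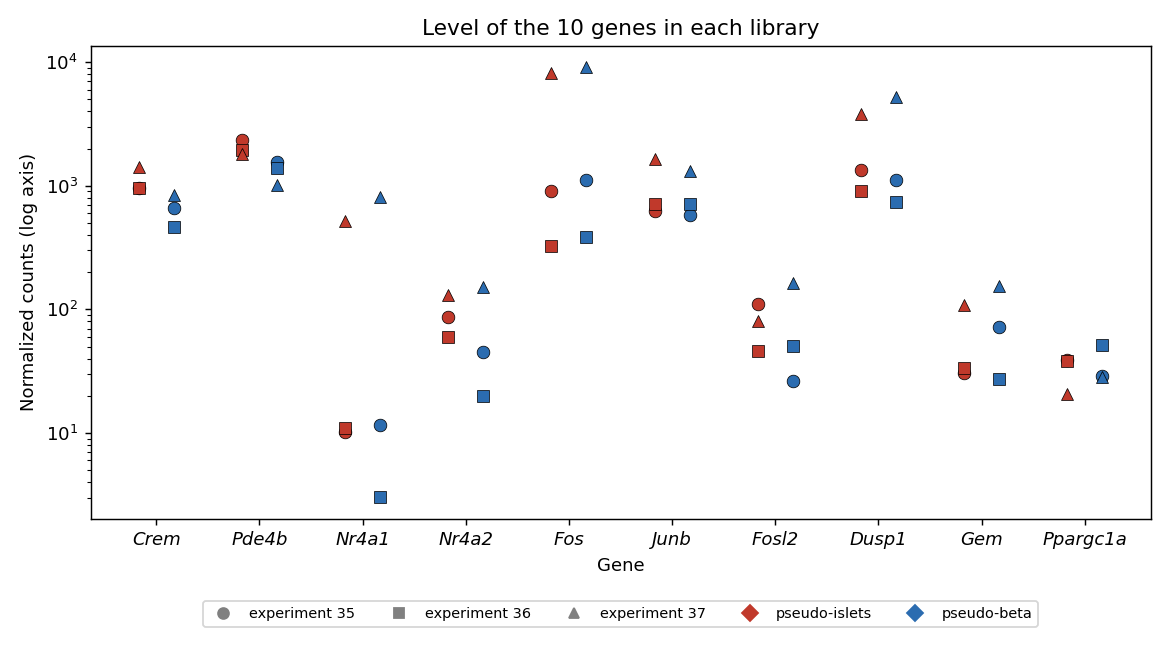
Normalized counts (log axis) of the 10 genes, listed along the horizontal axis, in each of the 6 libraries, with color for the culture form and the marker shape for the experiment. The pseudo-islets points of *Crem* and *Pde4b* lie above all pseudo-beta points, while for *Fos*, *Nr4a1*, *Dusp1* and *Junb* the experiment 37 triangles stand above the other points in both colors.

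*Crem* and *Pde4b* were higher in pseudo-islets in all 3 experiments, with no overlap between the groups. *Crem* measured 953, 957 and 1415 in pseudo-islets, against 656, 467 and 842 in pseudo-beta. The lowest pseudo-islets library was above the highest pseudo-beta library. The means were 1108 ± 266 and 655 ± 187 (SD, n = 3 each), and the fitted difference was 0.77 on the log2(value + 1) scale, or 1.71-fold, with a standard error of 0.24, or of 0.13 when the experiment was a block in the fit. The gene (ENSMUSG00000063889) lies on the minus strand of GRCm38 chr18:3266048-3337748 and overlaps the opposite-strand annotation *Gm6225*, and whether counting used strand is not given in the sources used here.

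*Pde4b* measured 2334, 1961 and 1795 in pseudo-islets. In pseudo-beta it measured 1557, 1384 and 1014. It too separated the groups completely, but experiment 37, where *Crem* was highest, had the lowest *Pde4b* level in both culture forms. The means were 2030 ± 276 and 1318 ± 277 (SD, n = 3 each), a fitted difference of 0.64 on the log2(value + 1) scale, or 1.55-fold, with a standard error of 0.18, or of 0.10 with the experiment as a block. The gene (ENSMUSG00000028525) spans chr4:102087543-102607259 on the plus strand.

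Among all 13535 genes, 10.8% had groups that did not overlap, and 33.1% moved the same way in all 3 experiments. The fit without a block called 0.0591% of genes and 0 of the 10 at an adjusted p under 0.05 (limma, Benjamini-Hochberg), and with the block it called 0.539% of genes and 2 of the 10, *Crem* and *Pde4b*. These counts are given as they stand and are no test of the 10 genes, because the genes were chosen on this contrast. Over 22 alternative settings the fitted log2 difference ran from 0.55 to 0.97 for *Crem* and from 0.46 to 0.77 for *Pde4b*. With 3 libraries per group, an exact two-sided permutation test of a single gene that ignores the pairing cannot go below p = 0.1. A permutation that keeps the pairs has a higher floor.

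Other cell types also moved with the culture form. The 2 immune-cell markers in the table, of 5, summed to between 1656 and 2675 in pseudo-islets and between 988 and 1416 in pseudo-beta, nearly all of it *C1qa*, while *Ptprc*, *Lyz2* and *Csf1r* were not listed and the study's sort of islet cells had excluded cells with the leukocyte antigen CD45. The 2 PP-cell markers *Ppy* and *Pyy* summed to 5500, 658 and 2451 in pseudo-islets and to 2482, 328 and 1032 in pseudo-beta. The 6 alpha-cell markers in the table, of 10, summed to between 24137 and 32359 against between 20853 and 23625, and the 2 delta-cell markers, of 5, to between 369 and 532 against between 249 and 273. Most of the alpha-cell sum was *Tm4sf4*, with 17462 to 22153 in pseudo-islets and 16763 to 18935.5 in pseudo-beta. The part of these cells in the *Crem* and *Pde4b* levels was not tested.

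The orphan nuclear receptors *Nr4a1* and *Nr4a2*, which bind DNA without a known natural ligand, did not hold one direction. *Nr4a1* measured 10.1, 10.9 and 515 in pseudo-islets, against 11.6, 3.02 and 812 in pseudo-beta. Both libraries of experiment 37 stood far above the other 4, and the groups overlapped. *Nr4a2* measured 87.5, 59.7 and 131 in pseudo-islets, against 45.0, 19.9 and 153 in pseudo-beta. It was higher in pseudo-islets in experiments 35 and 36, by 0.94 and 1.54 (log2), and lower by 0.22 in experiment 37, which again held the highest values. *Nr4a1* (ENSMUSG00000023034) lies at chr15:101254269-101274795 on the plus strand, and *Nr4a2* (ENSMUSG00000026826) at chr2:57106830-57124003 on the minus strand. The fitted log2 differences between culture forms were 0.25 ± 1.88 and 0.75 ± 0.63 (standard error), or ± 0.50 and ± 0.38 with the block. That of *Nr4a2* was 0.08 without pseudo-beta of experiment 36 and 1.52 without pseudo-beta of experiment 37, and that of *Nr4a1* ran from -1.58 to 2.53.

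*Fos*, *Junb* and *Fosl2* encode subunits of the AP-1 transcription factor. *Fos* measured 902, 329 and 8245 in pseudo-islets, against 1104, 384 and 9085 in pseudo-beta. It was lower in pseudo-islets in 3 of 3 experiments, with log2 differences of -0.29, -0.22 and -0.14, while its level spanned a far wider range between experiments, and the groups overlapped. *Junb* measured 621, 711 and 1646 in pseudo-islets against 585, 715 and 1312 in pseudo-beta. Its differences of 0.09, -0.01 and 0.33 (log2) were small, with experiment 37 highest in both forms. *Fosl2* measured 110, 46.2 and 81.0 in pseudo-islets against 26.4, 50.7 and 165. It had no shared order in the culture forms: its difference was 2.02 in experiment 35, -0.13 in 36 and -1.02 in 37.

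The fitted log2 differences between culture forms were -0.22 ± 1.20 for *Fos*, 0.14 ± 0.38 for *Junb* and 0.29 ± 0.60 for *Fosl2* (standard error). With the experiment as a block these standard errors were 0.10, 0.12 and 0.49. *Fos* (ENSMUSG00000021250) lies at chr12:85473890-85477273 and *Fosl2* (ENSMUSG00000029135) at chr5:32135801-32157842, both on the plus strand. *Junb* (ENSMUSG00000052837) lies at chr8:84974484-84978718 on the minus strand, where the opposite-strand gene *Prdx2* overlaps it.

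*Dusp1* and *Gem* encode feedback inhibitors: DUSP1 is a phosphatase that inactivates MAP kinases, and GEM is a small GTP-binding protein that restrains voltage-gated calcium channels. *Dusp1* measured 1332, 899.9 and 3805 in pseudo-islets, against 1112, 745 and 5262 in pseudo-beta. It was higher in pseudo-islets in experiments 35 and 36, by 0.26 and 0.27 (log2), and lower by 0.47 in experiment 37. *Gem* measured 30.8, 33.4 and 108 against 71.9, 27.2 and 154, with differences of -1.20, 0.28 and -0.52. The groups overlapped for both genes, and experiment 37 held the highest library of each form. The fitted log2 differences between culture forms were 0.02 ± 0.67 for *Dusp1* and -0.48 ± 0.65 for *Gem* (standard error), or ± 0.14 and ± 0.38 with the block. *Dusp1* (ENSMUSG00000024190) lies at chr17:26505590-26562128 on the minus strand within an annotation that overlaps 4 others, the opposite-strand gene *Ergic1* among them, and *Gem* (ENSMUSG00000028214) lies at chr4:11704457-11714752 on the plus strand.

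*Ppargc1a* encodes PGC-1alpha, a coactivator of genes for mitochondrial and oxidative metabolism that cAMP induces in liver. It measured 38.8, 38.3 and 20.8 in pseudo-islets, against 28.9, 51.7 and 28.6 in pseudo-beta. Its groups overlapped, its difference changed sign (0.41, -0.42 and -0.44), and it did not share the high level of experiment 37. The fitted log2 difference was -0.15 with a standard error of 0.46, or 0.44 with the block. The gene (ENSMUSG00000029167) lies at chr5:51454250-51567726 on the minus strand and overlaps 4 other annotations.

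The RefSeq promoter table (GRCm38.p6) held 11 windows, from 250 bases before to 50 after a start, for 8 of the 10 genes. *Crem* and *Gem* had no entry used here. The cAMP response element TGACGTCA was found on either strand in 1 of these genes, *Dusp1*, and in 1.79% of all 32851 windows. Its core TGACG was found in 7 of the 11 windows, 1 for each matched gene but *Fosl2*, and in 20.8% of all windows. *Nr4a1* and *Nr4a2* had 4 cores each, *Dusp1* had 3, *Fos* had 2, and *Junb*, *Pde4b* and *Ppargc1a* had 1 each. The AP-1 motif TGAGTCA, the NR4A motif AAAGGTCA and the CArG box of SRF were found in 0 of the 11, and in 5.20%, 1.51% and 1.63% of all windows. The 250 bases before the start are shown 5′ to 3′ for *Dusp1*, which holds the full element, and for *Fos* and *Nr4a1*, chosen after their values were seen for the largest differences between experiments, with capitals for the element or the core (CGTCA where it lies on the other strand).
Dusp1, chr17:26508473-26508722, minus strand: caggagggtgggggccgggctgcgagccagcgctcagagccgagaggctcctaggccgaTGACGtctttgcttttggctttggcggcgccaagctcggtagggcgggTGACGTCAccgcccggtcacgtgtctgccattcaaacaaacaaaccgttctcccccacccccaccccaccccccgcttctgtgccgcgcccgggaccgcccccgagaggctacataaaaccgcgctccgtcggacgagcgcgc
Fos, chr12:85473640-85473889, plus strand: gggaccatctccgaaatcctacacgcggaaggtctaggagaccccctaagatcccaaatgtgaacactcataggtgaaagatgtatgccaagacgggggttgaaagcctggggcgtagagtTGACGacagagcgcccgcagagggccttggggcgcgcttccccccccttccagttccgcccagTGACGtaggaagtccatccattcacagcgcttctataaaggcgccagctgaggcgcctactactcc
Nr4a1, chr15:101266596-101266845, plus strand: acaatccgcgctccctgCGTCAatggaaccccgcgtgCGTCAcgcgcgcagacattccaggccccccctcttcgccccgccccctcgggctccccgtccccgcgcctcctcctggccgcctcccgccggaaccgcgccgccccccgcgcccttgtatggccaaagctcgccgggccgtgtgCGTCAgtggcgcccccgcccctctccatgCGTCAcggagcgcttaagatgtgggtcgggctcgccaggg
Counted from the RefSeq start of transcription used, the element of *Dusp1* begins at -143 and contains a core on each strand. The cores of *Fos* begin at -129 and -66, and those of *Nr4a1* at -233, -213, -69 and -40. For *Dusp1* and *Nr4a1* this start lies inside the gene span given above, which begins farther upstream. A match describes these letters and not binding, and sites outside the windows were not searched for.

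Set side by side within each experiment, *Crem* and *Pde4b* gave log2 differences between 0.50 and 1.03, whereas the 7 immediate early genes spread on both sides of 0. In experiment 35 the mean was 0.56 for *Crem* and *Pde4b* and 0.23 for the immediate early genes, which ran from -1.20 to 2.02. In experiment 36 these means were 0.77 and 0.47, with a range from -0.22 to 1.57. In experiment 37 they were 0.79 and -0.38, with a range from -1.02 to 0.33. In experiments 35 and 36, 4 of the 7 immediate early genes were higher in pseudo-islets, and 1, *Junb*, was in experiment 37, where all 7 lay below both *Crem* and *Pde4b*, against 5 in each of the other experiments.

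Over the 3 experiments the mean difference was 0.71 ± 0.13 for *Crem* and *Pde4b* and 0.11 ± 0.44 for the immediate early genes (SD, n = 3). The gap between these means was 0.60 ± 0.50 (SD, n = 3), positive in every experiment but largest, at 1.17, in experiment 37. Without experiment 37 it was 0.31. The 10 genes were chosen with these values in view, and the gap has no test. The median of all genes was 0.00 in experiments 35 and 36 and 0.04 in experiment 37.

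**Figure D2:**
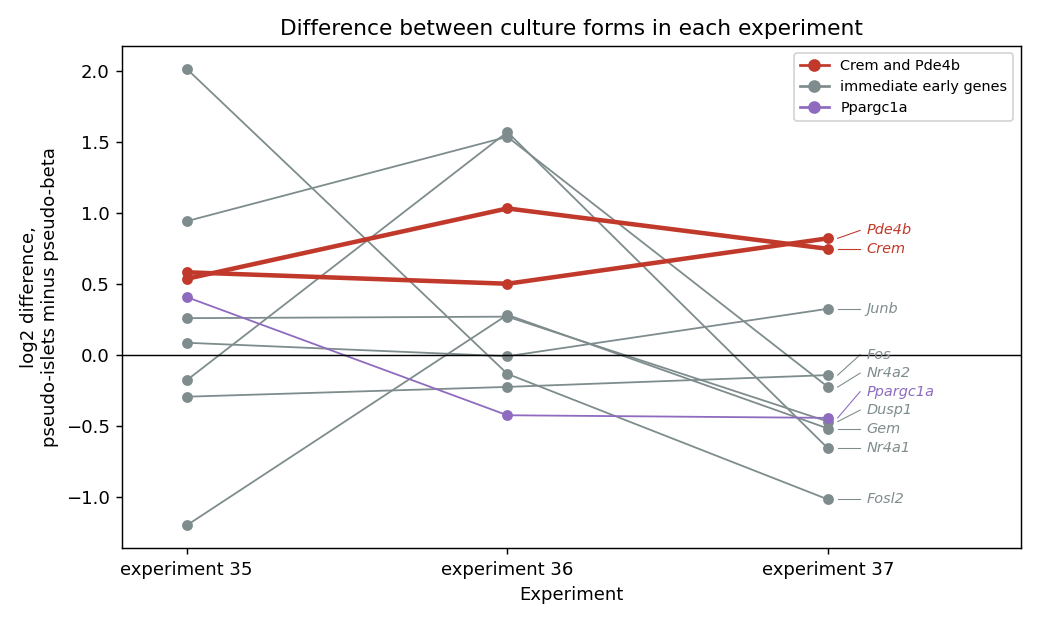
Log2 difference of normalized counts + 1, pseudo-islets minus pseudo-beta (vertical axis), in each of the 3 experiments (horizontal axis), with 1 line per gene. *Crem* and *Pde4b* stay between 0.50 and 1.03, and the immediate early genes run from -1.20 to 2.02 and cross.

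The level averaged over both culture forms is no part of the contrast on which the genes were chosen, although other results of these data were known by then, and it was tested between experiments. With 1 library of each form per experiment, the spread used was that of the difference between forms from experiment to experiment. The genes were chosen with that difference in view, so the p-values, ranks and counts below are not independent of the choice. The moderated F-test of limma called 5 of the 10 genes, *Nr4a1*, *Fos*, *Junb*, *Dusp1* and *Gem*, against 6.32% of all genes, and all 5 were highest in experiment 37, against 3.42% of all genes called with that order. Of the genes whose promoters are shown, *Fos* ranked first of the 13535 genes (adjusted p = 2.88e-08), *Dusp1* was at rank 9 (adjusted p = 7.96e-05) and *Nr4a1* at rank 21 (adjusted p = 0.000374). *Junb* was at rank 46 (adjusted p = 0.00242). *Gem* passed narrowly (adjusted p = 0.0498) and lost its call in 4 of 9 alternatives, over which its adjusted p ran from 0.0224 to 0.837.

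*Nr4a1* in experiment 37 was 54.8-fold above experiment 35 and 93.4-fold above experiment 36, on the log2(value + 1) scale a rise of 5.78 and 6.55 with a standard error of 0.61. *Fos* was 8.67-fold and 24.3-fold higher, or 3.12 and 4.60 with a standard error of 0.12. *Dusp1* was 3.67-fold and 5.46-fold higher (standard error 0.17 on the log2 scale), and *Junb* 2.44-fold and 2.06-fold higher (standard error 0.15). The differences of *Gem* were 1.43 and 2.06 (log2), with a standard error of 0.47. *Fos* also differed between the other experiments: it was lower in experiment 36 than in 35 by 1.49 (log2), and passed when experiment 37 was left out (adjusted p = 0.00664).

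The remaining 5 genes did not pass, although *Crem* did in 5, *Nr4a2* in 3 and *Pde4b* in 1 of 9 alternatives. *Crem* was 0.46 above experiment 35 and 0.71 above experiment 36 in experiment 37 (log2, standard error 0.16, adjusted p = 0.0535). *Nr4a2* was 1.16 and 2.00 above them (standard error 0.47, adjusted p = 0.0598), and *Fosl2* 1.08 and 1.24 (standard error 0.61, adjusted p = 0.351). *Pde4b* ran the other way, with -0.50 and -0.29 (standard error 0.13, adjusted p = 0.0824), as did *Ppargc1a*, with -0.44 and -0.84 (adjusted p = 0.563). By fitted level, 8 of the 10 genes were highest in experiment 37, against 38.2% of all genes, and for 6 of them both libraries of that experiment stood above the other 4, against 16.2% of all genes.

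The excess of experiment 37 over the mean of the other experiments was close in the 2 culture forms for *Fos*, at 3.92 in pseudo-islets and 3.80 in pseudo-beta (log2), for *Gem*, at 1.72 and 1.78, and for *Crem*, at 0.57 and 0.60. It was larger in pseudo-beta for *Nr4a1* (5.48 and 6.84), *Dusp1* (1.80 and 2.53), *Nr4a2* (0.84 and 2.31) and *Fosl2* (0.18 and 2.14), and larger in pseudo-islets for *Junb* (1.31 and 1.02). With 1 library per form in each experiment, these gaps between forms have no replicate check.

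**Figure D3:**
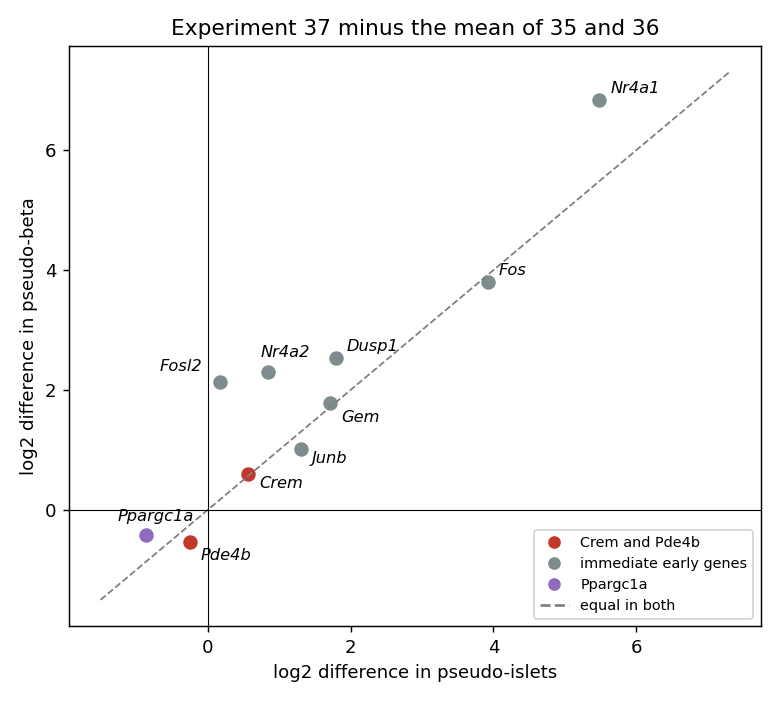
Log2 difference between experiment 37 and the mean of experiments 35 and 36, in pseudo-islets (horizontal axis) and in pseudo-beta (vertical axis), with 1 point per gene and a dashed line where both are equal. *Nr4a1* and *Fos* lie farthest out, *Crem* lies on the line at 0.57 and 0.60, and *Pde4b* and *Ppargc1a* lie below 0 on both axes.

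The test between experiments depended on the trend of variance with expression level that limma shares across genes. Without the trend, 0 of the 10 genes and 0 of 13535 passed, with 6 and 1962 at an unadjusted p under 0.05, and without experiment 37 only *Fos* passed among the 10. Transcripts of the mitochondrial genome (15 genes) took between 1.3% and 1.5% of normalized counts in experiment 37 and between 0.726% and 0.864% in experiments 35 and 36. Of the 8 beta-cell markers 4 passed the same test, and in experiment 37 *Iapp*, *Ins1* and *Mafa* were highest and *Slc2a2*, the glucose transporter gene, was lowest in both libraries, with 8573 and 8690 against 13639 to 16491 elsewhere. The alpha-cell markers summed to 32359 and 23625 in pseudo-islets and pseudo-beta of experiment 37, to 24188 and 21567 in experiment 35 and to 24137 and 20853 in experiment 36. *Tm4sf4* made up most of each sum, with 22153 and 18935.5 in experiment 37, while *Gcg* in pseudo-beta measured 36.1, 14.1 and 0. The part of any of these in the differences between experiments was not tested, and the labels give nothing but the number to tell the experiments apart.

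Per kilobase of merged exons (GENCODE M21), *Fos* had the highest mean level of the 10 over the 6 libraries, with 1421 normalized counts per kb and a range from 140 to 3863. *Dusp1* followed with 662 (225 to 1589) and *Junb* with 405 (254 to 715), then *Pde4b* with 159 (96.1 to 221) and *Crem* with 149.5 (79.2 to 240.0). *Nr4a1* had 64.7 (0.861 to 231), *Gem* 33.7, *Nr4a2* 20.3, *Fosl2* 8.25 and *Ppargc1a* 5.23 (3.15 to 7.84). Of the 9 neighboring pairs in this order, 8 overlapped in range, and only *Junb* and *Pde4b* were apart.

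Genes of the same pathways were counted in 5 further lists. The lists share some genes, among them *Per1*, *Jun* and *Srf*, so their counts are not separate. Between culture forms, limma called 0.0591% of all 13535 genes without the block and 0.539% with it, so that a count of 0 in lists of this size is the background and is no result about them. At an unadjusted p under 0.05 the shares of all genes were 5.4% and 11.9%, the median log2 difference of all genes was 0.01, and 51.4% lay above 0.

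Of 16 other cAMP and CREB response genes, 11 were in the table. Between culture forms limma called 0, with or without the block, with 0 and 1 at an unadjusted p under 0.05. Their median log2 difference was 0.10, with 9 above 0 and 2 below. *Pde10a*, a phosphodiesterase, had 0.52 ± 0.35 and the granin gene *Scg2* 0.16 ± 0.11, while *Rgs2*, a regulator of G-protein signalling, had -0.24 ± 0.31 (standard error). The difference of *Pde10a* changed sign, with 1.10, 0.85 and -0.38 in experiments 35, 36 and 37 (log2). *Irs2*, the insulin receptor substrate that CREB induces in beta-cells, measured 41.3, 66.6 and 265 in pseudo-islets, against 78.5, 80.6 and 247 in pseudo-beta. It was the only gene of the 11 called between experiments (6.32% of all genes), with 2.15 between experiments 37 and 35 (log2, adjusted p = 0.0113), and its difference between culture forms was -0.36 ± 0.65.

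Of 41 other immediate early genes, 28 were in the table. Between culture forms limma called 0 without the block and 0 with it, with 1 and 4 at an unadjusted p under 0.05, and their median log2 difference was -0.06, with 12 above 0 and 16 below. Between experiments 8 of the 28 passed, or 28.6% against 6.32% of all genes. Of these, 7 were highest in experiment 37: *Btg2*, *Egr1*, *Ier2*, *Jun*, *Plk3*, *Socs3* and *Zfp36*. *Klf10* was lowest there. By fitted level, 23 of the 28 were highest in experiment 37, against 38.2% of all genes. The median log2 difference of the 28 was 0.90 from experiment 35 to 37 and 0.74 from 36 to 37, against 1.43 and 2.06 for the 7 immediate early genes above.

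*Egr1*, a zinc-finger transcription factor, measured 328, 173 and 2626 in pseudo-islets, against 390, 189.5 and 2456 in pseudo-beta (adjusted p = 3.63e-06 between experiments). *Jun*, the AP-1 partner of *Fos*, measured 352, 289 and 2073 against 437, 278 and 2373 (adjusted p = 8.43e-06). *Ier2* measured 307, 313 and 1977 against 465, 364 and 3017 (adjusted p = 8.43e-06). In all 3 genes both libraries of experiment 37 stood above the other 4. *Klf10*, a transcription factor induced by TGF-beta, measured 503, 416 and 221 in pseudo-islets, against 909, 566 and 410 in pseudo-beta, and was lower in pseudo-islets in all 3 experiments (-0.73 ± 0.35, log2). *Ier3* had a log2 difference of 1.34 ± 0.56, *Socs3* of 0.89 ± 0.71 and *Srf* of -0.69 ± 0.42 (standard error). Single libraries weighed on these values: *Ier3* fell to 0.45 without experiment 36, *Socs3* to 0.08 without pseudo-islets of experiment 37, and *Srf* was at -0.13 without experiment 36.

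**Figure D4:**
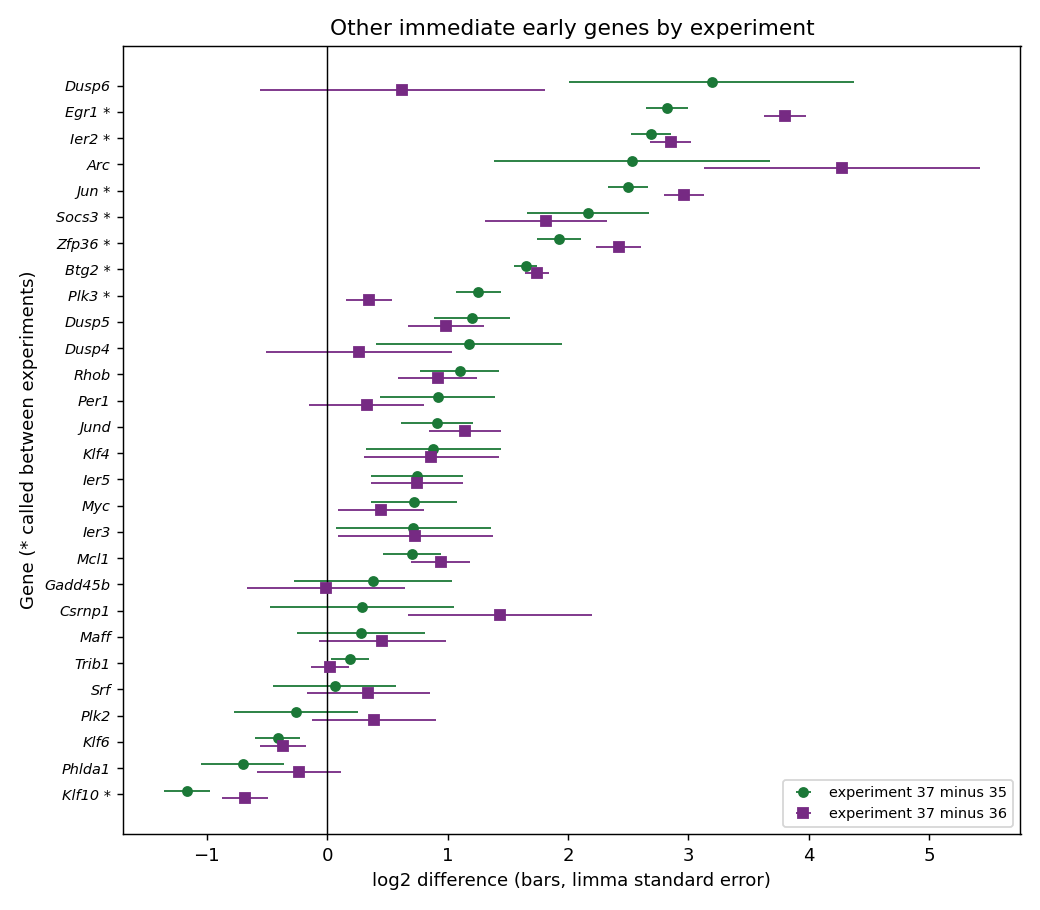
Log2 difference between experiments (horizontal axis) for the 28 other immediate early genes in the table (vertical axis), averaged over both culture forms, with limma standard errors as bars. The 8 genes with an asterisk passed the test between experiments, and of these *Klf10* alone lies left of 0.

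Of 14 CREB and SRF factors and coactivators, 13 were in the table. Between culture forms limma called 0 with or without the block (0 at an unadjusted p under 0.05, and 2 with the block), with a median log2 difference of -0.01. *Creb1* itself had 0.38 ± 0.21, and the kinases *Sik3* and *Sik2*, which hold CREB coactivators in the cytoplasm, had 0.16 ± 0.37 and -1.02 ± 0.46 (standard error). *Sik3* was the 1 gene of the 13 called between experiments and was highest in 37 (adjusted p = 0.0198). Of 17 paralogues of the 10 genes, 11 were in the table and limma called 0 (2 at an unadjusted p under 0.05 in either fit), with 2 above 0, 9 below and a median of -0.15. *Pde4a*, the sister phosphodiesterase of *Pde4b*, measured 65.4, 36.8 and 30.5 in pseudo-islets, against 71.1, 105 and 77.4 in pseudo-beta, a log2 difference of -0.97 ± 0.39. *Pprc1*, a relative of *Ppargc1a*, had -0.92 ± 0.36, *Jund* -0.15 ± 0.39 and *Rem2*, which like *Gem* restrains calcium channels, 0.28 ± 0.34.

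Heat shock and stress genes were followed beside the immediate early genes. Of 9, 8 were in the table. Between culture forms limma called 0 with or without the block (1 at an unadjusted p under 0.05, and 3 with the block), with a median log2 difference of 0.09. Between experiments 2 of the 8 passed, against 6.32% of all genes, in opposite directions: *Hspe1* was highest in experiment 37 (adjusted p = 0.0377) and *Hspa8* was lowest there (adjusted p = 0.00912). The median of the 8 genes was -0.43 between experiments 37 and 35 and -0.10 between 37 and 36. *Hmox1* had a log2 difference between culture forms of 0.57 ± 0.28, *Dnajb1* 0.23 ± 0.18, *Hsp90aa1* -0.02 ± 0.15 and *Hspa1a* -0.32 ± 0.36 (standard error).

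The genes whose profile over the 6 libraries lay closest to that of *Crem*, among 10576 others that averaged 50 or more normalized counts, were *Ipo13*, *1110020A21Rik* and *Dbi*. The root-mean-square log2 difference of the centred profiles was 0.11, 0.15 and 0.16, where the profile of *Crem* itself varied by 0.50. *Ipo13*, an importin, measured 97.0, 119 and 173 in pseudo-islets, against 80.2, 59.4 and 106 in pseudo-beta. *Dusp1*, at 0.19, lay closest to the mean profile of the 7 immediate early genes, which contains it, followed by *Jun* at 0.23 and *Zfp36* at 0.28, where the mean profile varied by 1.24. These are the closest profiles over only 6 libraries and are given as a description.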

How the data were processed

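RNA was sequenced from beta-cells of pseudo-islets (3 libraries) and pseudo-beta (3 libraries). The authors used 5 ng of RNA per library, removed ribosomal sequences and sequenced 75 bases from both ends. According to the submitters' processing notes, STAR 2.7.6a, RSEM 1.3.1, R 3.6.3 and DESeq2 1.26.0 were used, with GRCm38. The annotation release and any filter on low genes are not given in the sources used here. The deposited signal is normalized counts per gene, made by the authors. They are not whole numbers, and no whole reads were recovered. The deposited table also holds the authors' mean, log2 fold change, standard error, statistic (a score), p-value and adjusted p-value, which were not used. Of the 13535 genes, 16 had no symbol.

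Values were tested with limma 3.58.1 (R 4.3.3) on log2(value + 1), with a trend of the prior variance and Benjamini-Hochberg adjustment over all genes, and called at an adjusted p under 0.05. Fold changes are on that scale, which understates those of low genes. The F-test between experiments used a fit with group and experiment. The tests were also run on simulated data with independent normal noise around the mean of each gene. Apart from the genes changed on purpose, no simulated gene differed between experiments, unlike in these data. Depth limits precision through the spread of libraries alone, with a median standard error of 0.27 (log2) without the block. P-values measure the spread between these libraries. For the F-test between experiments, each experiment held 1 library of each form. Its p-values therefore rest on how far the difference between forms varied from experiment to experiment, with variance shared across genes. Deviations from group means correlated at -0.203 to 0.0922 between experiments and at 0.119, 0.121 and 0.325 between libraries of 1 experiment, each above the minimum of 0.1, so the numbers were taken to pair the samples.

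The 10 genes and the lists were chosen with earlier results of these data known. From each list were named all genes called, and the 2 highest and 2 lowest log2 fold changes among genes averaging 50 or more. Genes called between experiments and other examples were named after their values were seen. Coordinates, overlaps and exon lengths are from GENCODE M21 and promoters from RefSeq GRCm38.p6. Alternatives were the block, pseudocounts of 0.1 and 10, a minimum of 10 in every library, scaling without the 10 most abundant genes, quantile normalization, no trend and leaving out libraries. The block combined with these choices was added for the 10 genes after seeing the data.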

Additional observations from a re-analysis of the deposited data

How the results depend on the processing

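The log2 differences of *Crem* and *Pde4b* kept their sign in all 22 alternatives, as did that of *Nr4a2*, which ran from 0.08 to 1.52. Sign changes occurred for *Dusp1* in 9 of 22, *Nr4a1* in 6 of 20, *Fos* in 3, *Junb*, *Fosl2* and *Ppargc1a* in 2 each and *Gem* in 1. Those of *Fos*, *Junb*, *Ppargc1a* and *Gem* all came from fits without the block and with 1 library left out. Such fits break the pairing by experiment. With the block, *Fos* stayed between -0.28 and -0.18 in every alternative. The gap between *Crem* and *Pde4b* and the immediate early genes ran from 0.31 to 0.75 over 16 alternatives, each within 1 SD of 0.60. With the experiment numbers as a replicate block, 73 genes in place of 8 differed between culture forms, and 28, 73 and 45 without experiment 35, 36 or 37. Without the block the count was 2 with no trend, 1 with a pseudocount of 0.1, 2 with quantile normalization, 2 with scaling without the 10 most abundant genes, and 0 to 13 with a library left out (13 without pseudo-beta of experiment 37, 0 without pseudo-beta of experiment 35 or any 1 pseudo-islets library). Among other immediate early genes, the count of 0 became 1 (*Klf10*, adjusted p = 0.0454) with the block and without experiment 36, and the block changed no other list's count. The 855 genes called between experiments became 0 with no trend, 1551 without experiment 36 and 5 without experiment 37, and the 5 of the 10 genes became 0, 6 and 1, and 7 without experiment 35. With a library or experiment left out, the log2 difference between culture forms turned to 0.063, 0.13, 0.0065 and 0.011 for *Hsp90aa1* (range -0.15 to 0.13), 0.18 and 0.19 for *Irs2* (-1.13 to 0.19), 0.12 and 0.14 for *Jund* (-0.57 to 0.14), 0.065 for *Rgs2* (-0.49 to 0.065), and -0.08 and -0.23 for *Sik3* (-0.23 to 0.46). *Pde10a* ran from 0.23 to 0.98, *Dnajb1* from 0.08 to 0.35, *Hspa1a* from -0.60 to -0.04 and *Rem2* from 0.09 to 0.50. The cause was not tested. With n = 3 and an unknown number of reads, small differences of low genes such as *Nr4a1*, *Fosl2*, *Gem* and *Ppargc1a* were not resolved.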
